A study of Mus musculus with 5 samples.

Results

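Dividing cells were followed in the droplet libraries SC4 and SC5, among GFP+ Prx1-derived cells sorted from injured mouse hindlimb muscle. A cell was called dividing where at least 4 of 6 division genes (Mki67, Top2a, Cdk1, Ube2c, Prc1 and Tpx2) had at least 2 unique molecular identifiers (UMIs, each one captured RNA molecule) and the cell held at least 5000 UMIs. Of 4907 cells of that depth in SC4, 759 were dividing, and of 5744 in SC5, 727. Together these are 1486 of 10651 cells, in a series of 34439 cell barcodes, 32547 retained cells and 23833 retained cells with at least 5000 UMIs. Cells were retained with 350 to 8000 detected genes and a mitochondrial share below 20%. Dividing cells were compared with cells of the same library and depth limit in which none of the 6 genes had a UMI, 1726 cells in SC4 and 2240 in SC5. The 2422 cells of SC4 and 2777 of SC5 that lay between both groups were in neither.

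Single-cell RNA sequencing was done on cells of Prx1Cre;RosamTmG mice. In these mice, Cre under the Prx1 promoter of limb mesenchyme turns cells and their descendants from tdTomato to GFP. Fibro-adipogenic and mesenchymal progenitors of muscle (FAP/MP) belong to this lineage. The injuries were a non-stabilized tibial fracture, and polytrauma, in which the muscles around the tibia were compressed before the fracture. Cells of 2 mice went into every library, and no condition has more than 1 library. All groups carried the same alleles. SC4 is labelled d3 post-fracture. SC5 carries the label d5 post-fracture, but its 6915 barcodes fit the cell numbers in the published source data for d3 post-polytrauma, and SC_9, which carries that label, holds 2001. Because of this conflict the main comparisons are within a library, SC5 is called by its name and not by a condition, and SC5 and SC4 are set against each other only as libraries. The remaining libraries are SC3 from uninjured muscle (d0), SC_9, and SC10, labelled d5 post-polytrauma. With no replicate library, no comparison could be tested, no p-value is given, and every interval is 95% and covers counting error only.

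Libraries held 100403837 UMIs in 6229 barcodes (SC4) and 103780343 UMIs in 6915 barcodes (SC5). Some barcodes occurred in more than 1 library, which was the case for 27 of the 759 dividing cells of SC4 and for 97 of the 727 of SC5 (13.3%). In SC5, 93 of these were shared with SC3, where the same barcodes held a median of 547 UMIs against 39362 in SC5. Comparison cells of SC5 shared a barcode in 1.79% of cases. Leaving shared barcodes out gave 11.4% dividing cells in SC5 in place of 12.7%.

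A cell that divides first licenses its replication origins, by loading the Mcm helicase onto DNA, and then copies its chromosomes in S phase. In G2 and M phase it builds cyclin B with Cdk1, condenses its chromosomes, attaches them through kinetochores to spindle microtubules, and finally marks cyclins for destruction through the anaphase-promoting complex (APC/C). Fibroblastic muscle progenitors are quiescent in uninjured muscle and enter the cycle after injury. The genes of the early steps are controlled largely through E2F sites in their promoters, and those of the late steps through CCAAT boxes, bound by NF-Y, together with a cell cycle homology region (CHR), most often TTTGAA. Of the 6 rule genes, Mki67 codes for the Ki-67 protein that coats mitotic chromosomes, Top2a for the topoisomerase that untangles DNA, Cdk1 for the mitotic kinase, Ube2c for an APC/C ubiquitin-conjugating enzyme, Prc1 for a midzone microtubule bundler and Tpx2 for a spindle assembly factor.

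The promoters of 5 of the 6 rule genes are shown because these genes define the cells, with those of Mcm5 and Mcm6, helicase genes outside the rule, for contrast. Each stretch is the 160 bases before the transcription start (RefSeq, GRCm38.p6), written 5′ to 3′ in the direction of the gene. Capitals mark CCAAT (or ATTGG on the other strand), TTTGAA (or TTCAAA), its variant TTCGAA, and the E2F-type word TTTNNCGC (or its complement), where N is any base. A word of the last kind can overlap its match on the other strand, as in Mcm5 and Mcm6.
Mki67 (chr7:135716380-135716539, minus strand): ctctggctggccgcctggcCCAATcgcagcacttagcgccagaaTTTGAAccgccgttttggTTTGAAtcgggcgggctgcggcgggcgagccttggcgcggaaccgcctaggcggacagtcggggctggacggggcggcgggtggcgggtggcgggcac
Top2a (chr11:99024190-99024349, minus strand): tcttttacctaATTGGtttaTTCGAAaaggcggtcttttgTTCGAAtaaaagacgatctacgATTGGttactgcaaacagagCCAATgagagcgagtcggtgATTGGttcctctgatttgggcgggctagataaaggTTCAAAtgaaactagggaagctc
Cdk1 (chr10:69352913-69353072, minus strand): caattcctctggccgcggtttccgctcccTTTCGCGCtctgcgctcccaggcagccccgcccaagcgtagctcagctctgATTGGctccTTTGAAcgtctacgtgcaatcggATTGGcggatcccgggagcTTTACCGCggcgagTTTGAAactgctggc
Ube2c (chr2:164769769-164769928, plus strand): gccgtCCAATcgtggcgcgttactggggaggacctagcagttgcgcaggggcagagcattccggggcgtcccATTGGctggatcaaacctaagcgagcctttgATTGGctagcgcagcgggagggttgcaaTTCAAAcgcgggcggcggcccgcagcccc
Prc1 (chr7:80294291-80294450, plus strand): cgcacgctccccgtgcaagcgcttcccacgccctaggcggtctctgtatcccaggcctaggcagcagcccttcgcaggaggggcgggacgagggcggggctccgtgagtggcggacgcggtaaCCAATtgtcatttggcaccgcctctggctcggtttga
Mcm5 (chr8:75109349-75109508, plus strand): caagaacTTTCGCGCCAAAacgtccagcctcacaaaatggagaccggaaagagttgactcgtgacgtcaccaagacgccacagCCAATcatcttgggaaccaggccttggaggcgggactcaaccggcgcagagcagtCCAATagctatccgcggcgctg
Mcm6 (chr1:128359706-128359865, minus strand): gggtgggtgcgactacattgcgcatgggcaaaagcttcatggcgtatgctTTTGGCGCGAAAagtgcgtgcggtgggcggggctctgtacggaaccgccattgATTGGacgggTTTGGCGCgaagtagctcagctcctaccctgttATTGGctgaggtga
Top2a carried CCAAT 4 times and TTCGAA 2 times, Ube2c 3 times and Cdk1 2 times, each with TTTGAA 1 or 2 times between bases 71 and 10 before the start. In Mki67, TTTGAA lay farther upstream, from base 116 and from base 98. Prc1 had 1 CCAAT from base 37, and its TTTGAA crossed the start and is therefore not whole in the stretch shown. Mcm5 and Mcm6 held no TTTGAA here, but TTTNNCGC 2 and 3 times, and CCAAT 2 times each. Cdk1 held TTTNNCGC 2 times as well. In windows of 250 bases before to 50 after the start, all 5 rule genes had CCAAT and TTTGAA, against 37.9% and 18.1% of 27025 promoters, while TTTNNCGC was in 1 of the 5 and in 5.27% of all. A match of letters is a description and not a binding site.

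The cells were chosen by the UMIs of the 6 rule genes, whose values are therefore a description. In SC4, summed UMIs, scaled to the same total in every group (counts per 1000000, CPM), in dividing cells were 474 for Ube2c, 272 for Cdk1, 209 for Top2a, 109 for Prc1, 90.3 for Tpx2 and 51.2 for Mki67. In SC5 they were 415, 197, 217, 110, 84.6 and 54.0 in the same order. Ube2c was thus the most abundant rule gene and Mki67 the least in both libraries, and a dividing cell of SC4 held a mean of 13.6 Ube2c and 1.47 Mki67 UMIs. Only 44.0% of the dividing cells of SC4 reached 2 UMIs of Mki67, compared with 97.5% for Ube2c. Just inside the limit, the 315 cells of SC4 with exactly 4 genes held a median of 20 UMIs of the 6 genes. The 328 cells with exactly 3 genes held 13, at 24389 UMIs per cell compared with 26589. The histogram of cells by number of genes has no gap at the limit.

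**Figure D1:**
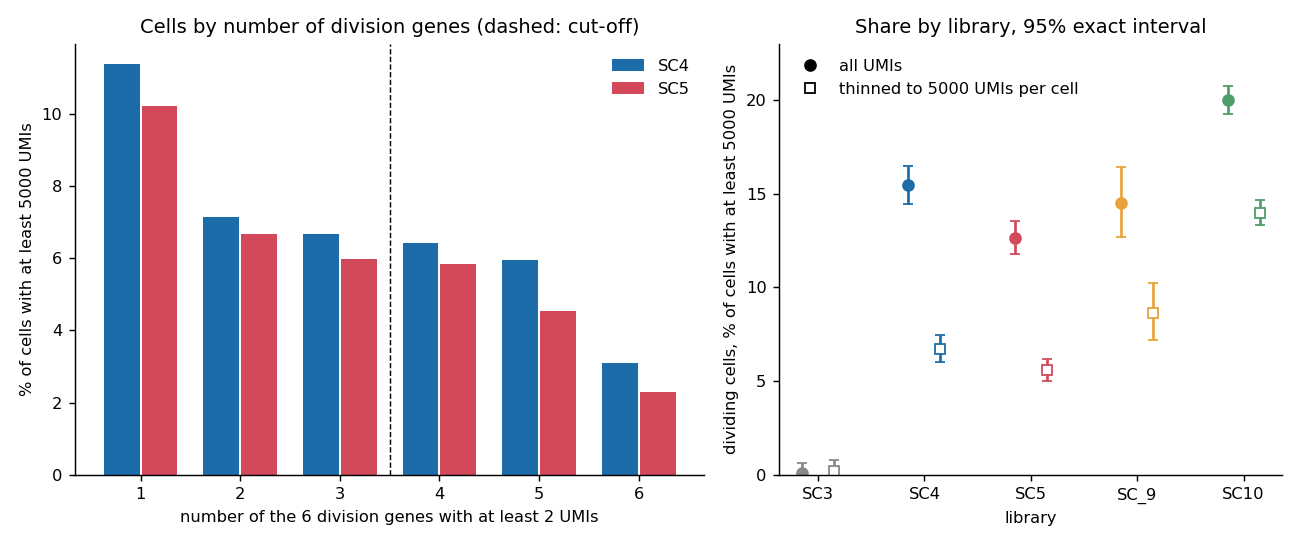
Left, share of cells with at least 5000 UMIs (%) by the number of the 6 division genes that had at least 2 UMIs, in SC4 and SC5, with the limit dashed and cells at 0 left out. Right, share of dividing cells (%) in each of the 5 libraries with exact 95% intervals, from all UMIs (filled) and after thinning each cell to 5000 UMIs, with at least 1 UMI of 4 of the genes (open). SC3 lies near 0 at 0.109%, and every injured library lies between 12.7% and 20.0% before thinning.

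Dividing cells made up 15.5% (exact binomial interval 14.5 to 16.5) of SC4 and 12.7% (11.8 to 13.5) of SC5. Intervals over cells of 1 library each say nothing of the spread between libraries or mice. In uninjured muscle, SC3 held 1 such cell of 918 (0.109%, 0.00276 to 0.605), but only 918 of its 5367 retained cells reached 5000 UMIs. Depth moved with this rule, since dividing cells held a median of 28367 UMIs in SC4 and 26683 in SC5, against 15175 and 13165 in comparison cells, a ratio of 1.87 and 2.03. After each cell was thinned to 5000 UMIs, a looser rule was applied, at least 1 UMI of at least 4 of the 6 genes. It held for 329 cells (6.70%, 6.02 to 7.44) of SC4, 320 (5.57%, 4.99 to 6.20) of SC5 and 2 (0.218%, 0.0264 to 0.785) of SC3. By doublet score, 4.48% of dividing cells were marked as likely doublets in SC4 and 4.95% in SC5, and 2.09% and 2.81% of comparison cells. Over all cells with at least 5000 UMIs the shares were higher, at 5.93% in SC4 and 6.15% in SC5.

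The dividing cells carried the mark of the sorted lineage. EGFP stood at 2924 CPM in dividing and 2610 in comparison cells of SC4, and at 2989 and 2518 in SC5. It was detected in 100% and 99.9% of dividing cells and in 99.8% and 99.7% of comparison cells. There was no UMI of tdTomato in either group. As all cells were sorted on GFP, these values are a description. Prrx1, the transcription factor gene also named Prx1, was at 116 CPM in dividing and 135 in comparison cells of SC4 and at 182 and 178 in SC5. Pdgfra, the receptor used to recognise FAP, was at 39.0 and 59.3 CPM in SC4 and at 58.8 and 77.6 in SC5. With Cxcl12, Ly6a and Cd34 these make up 5 progenitor markers, which summed to 667 CPM in dividing and 1240 in comparison cells of SC4 and to 1157 and 2081 in SC5. Cxcl12, a chemokine, lay 2.44-fold lower in SC4, at 177 against 431 CPM, and 2.49-fold lower in SC5, at 312 against 775. Ly6a, the Sca-1 antigen, was at 297 against 558 CPM in SC4 and at 554 against 984 in SC5. Among cells of 20000 to 30000 UMIs the 5 markers summed to 714 against 849 CPM in SC4 and to 1267 against 1457 in SC5. Hematopoietic markers (9 genes) summed to 6.24 CPM in dividing and 33.6 in comparison cells of SC4, with Ptprc, Itgam and Laptm5 at 0 in dividing cells, and to 16.3 and 100 in SC5, where none was at 0. Cells with at least 2 UMIs of these markers were 1.84% of dividing and 1.51% of comparison cells in SC4 and 3.03% and 2.54% in SC5, and among cells of 20000 to 30000 UMIs, where no marker passed the filter, the markers that passed it over all cells had a median log2 ratio of 0.42 in SC4 (2 genes) and 0.12 in SC5 (4 genes). Endothelial markers (6 genes) summed to 3.58 CPM in dividing cells of SC4 and 4.49 in SC5. Myogenic markers (6 genes) summed to 0.367 CPM in SC4, with Pax7, Myod1, Myf5 and Myog at 0, and to 7.89 in SC5 against 1.12 in comparison cells. In comparison cells, endothelial markers summed to 4.71 CPM in SC4 and 8.09 in SC5, and myogenic markers to 0.57 in SC4. These markers thus held few of the UMIs in both groups, and the share of such lineages was not tested. Erythroid markers (5 genes) summed to 1.10 CPM in dividing cells of SC4 and 2.20 in SC5, and comparison cells of SC5 had 105.

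Markers of cell types within the Prx1 lineage were present. The 6 tenocyte markers summed to 246 CPM in dividing and 553 in comparison cells of SC4, and to 137 and 338 in SC5, led by Thbs4 (thrombospondin 4). Pericyte markers (8 genes) summed to 62.6 and 94.1 CPM in SC4 and to 60.5 and 54.0 in SC5, led by Pdgfrb except in comparison cells of SC4, where Rgs5 led at 38.6 CPM. In cells of 20000 to 30000 UMIs the sums turned in SC4, to 84.7 CPM in dividing and 33.9 in comparison cells, and were 67.4 and 39.0 in SC5. Rgs5, a regulator of G protein signalling, lay lower over all cells of SC4, at 12.1 against 38.6 CPM, and higher in those cells, at 23.9 against 0.930. Chondrogenic markers (8 genes, led by Sox9) summed to 135 and 145 CPM in SC4 and to 112 and 137 in SC5. All 4 tenocyte genes that passed the filter used below lay at least 2-fold lower in dividing cells of both libraries. Among cells of 20000 to 30000 UMIs none of 3 tested did so in SC4 and 1 of 4 in SC5, and Tnmd, a tendon membrane protein, was at 36.3 CPM in dividing and 19.8 in comparison cells of SC4. The part of these cell types in the results below was not tested gene by gene, and leaving out marker-positive cells is among the alternatives.

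Each gene was compared by its CPM in dividing and comparison cells, as log2((CPM + 1)/(CPM + 1)), among genes with a mean of at least 5 CPM over both groups. In SC4, 338 of 8252 genes lay at least 2-fold higher in dividing cells (4.1% of those tested) and 295 lower (3.57%). In SC5, 423 of 8244 lay higher (5.13%) and 319 lower (3.87%). Both libraries together had 314 of 7966 genes higher (3.94%) and 206 lower (2.59%). The 6 rule genes are counted among those tested and higher in each library and in both. No gene lay at least 0.5 log2 up in one library and as far down in the other. For comparison, 9.85% of genes lay higher and 9.28% lower in SC_9, and 4.66% and 2.26% in SC10. Over all genes tested the log2 ratio had a median of 0.02 in both libraries, and Pearson's r of the ratios across these 7966 genes, which are not independent, was 0.948. Counts of the groups below are descriptions, since the rule chose cells on this contrast and since a gene at 0 in comparison cells passes the filter only if dividing cells are high in it.

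Because dividing cells were deeper, the same contrast was computed in cells of 20000 to 30000 UMIs, a band chosen after seeing the data. It held 365 dividing and 326 comparison cells of SC4, with medians of 25700 and 22597 UMIs, and 351 and 196 cells of SC5, with 24957 and 22318. Genes higher in dividing cells numbered 331 in SC4 and 330 in SC5 (4.05% and 4.06%). Genes lower numbered 26 and 45 (0.318% and 0.554%). In both libraries 270 genes were higher and 9 lower of 7827. The band narrows the gap in depth but does not close it. Fewer genes were higher in SC5 than over all cells, and most of the lower genes were not lower by 2-fold there. Of the genes lower in the full contrast, 16 of 295 were lower in the band in SC4 and 34 of 319 in SC5.

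**Figure D2:**
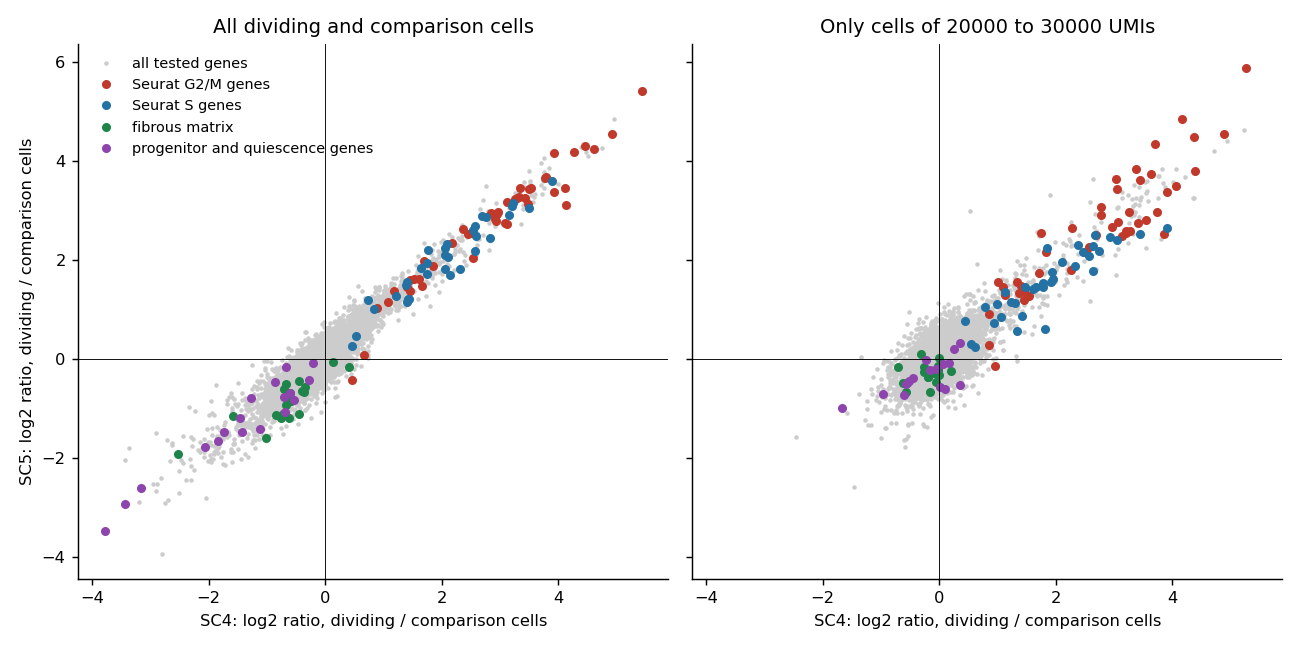
Log2 ratio of dividing to comparison cells for each gene in SC4 (horizontal axis) and SC5 (vertical axis), without the 6 rule genes. Left, all cells. Right, cells of 20000 to 30000 UMIs only. Over all cells, r was 0.948 across the 7966 genes tested in both libraries, which include the rule genes. Seurat's G2/M and S genes stay at the upper right in both panels, while matrix and progenitor genes move from the lower left toward 0.

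Genes that start DNA replication lay higher as a group. Of 17 genes of origin licensing and firing, 12 passed the filter, and all 12 were at least 2-fold higher in both libraries, with a median log2 ratio of 2.03 in SC4 and 1.80 in SC5. Mcm5 (chr8:75109569-75128439 of GRCm38, as all gene positions here), a subunit of the replicative helicase, was at 50.0 CPM in dividing and 7.58 in comparison cells of SC4, a ratio of 6.59 (5.66 to 7.71). In SC5 it was at 59.1 and 8.36 CPM, a ratio of 7.07 (6.16 to 8.13). Mcm3 of the same complex was at 37.1 against 6.97 CPM in SC4 and at 39.8 against 7.30 in SC5. Gins2, part of the complex that turns the helicase on, was at 80.3 against 18.6 CPM in SC4 and at 86.7 against 19.5 in SC5. Both helicase subunits stood apart by more than 5-fold and Gins2 by more than 4-fold. Within the common UMI band the group medians were 1.71 and 1.32, and Mcm5 kept a ratio of 4.03 in SC4 and 3.05 in SC5.

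Fork and nucleotide genes followed. Of 24 fork and polymerase genes, 21 passed the filter in both libraries and 18 were at least 2-fold higher, with medians of 1.83 and 1.86. Chaf1b, which places histones behind the fork, was at 23.3 against 2.41 CPM in SC4 and at 21.2 against 3.11 in SC5. Rfc5, a loader of the sliding clamp, was at 59.1 against 11.4 CPM in SC4 and at 57.3 against 9.68 in SC5. Among 12 genes of nucleotide synthesis, 11 passed and 7 were higher, and all 7 serve the supply of deoxynucleotides. Tk1, thymidine kinase, was at 127 against 17.1 CPM in SC4 and at 125 against 16.7 in SC5, a ratio of 7.44 and 7.48. Rrm1, a subunit of ribonucleotide reductase, was at 67.8 against 9.12 CPM in SC4 and at 53.9 against 6.51 in SC5. Tyms, thymidylate synthase, was at 125 against 28.1 CPM in SC4 and at 121 against 28.5 in SC5. All 3 enzymes also lay at least 2.94-fold higher within the band.

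Of 24 cyclin and kinase genes, 19 passed in both libraries and 14 were at least 2-fold higher, with medians of 2.66 and 3.07. Ccnb1 (chr13:100778650-100786570), cyclin B1, was at 94.1 CPM in dividing and 3.52 in comparison cells of SC4, a ratio of 26.7 (21.7 to 33.3). SC5 had 79.4 against 3.14 CPM, a ratio of 25.3 (20.6 to 31.4). Cyclin A2 (Ccna2), which serves S and G2 phase, was at 57.9 against 1.57 CPM in SC4 and at 60.5 against 2.58 in SC5. Aurkb, the kinase that corrects chromosome attachment, was at 60.6 against 1.03 CPM in SC4 and at 58.2 against 1.52 in SC5. The G1 kinase gene Cdk4 was abundant in both groups, at 440 against 304 CPM in SC4 and 488 against 276 in SC5, and stayed within 2-fold. In the band Ccnb1 had ratios of 16.8 and 13.8 and Aurkb of 53.5 and 37.6.

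Inhibitors of the kinases did not share a direction. Of 10 inhibitor and pocket protein genes, 5 passed in both libraries, 1 was higher and 1 lower. Cdkn2d, an inhibitor of Cdk4 and Cdk6, was at 48.0 against 12.1 CPM in SC4 and at 34.4 against 7.70 in SC5, with ratios of 4.65 and 4.74 in the band. Cdkn1c, the p57 inhibitor, was lower at 3.44 against 12.3 CPM in SC4 and 3.89 against 15.3 in SC5, but in the band 4.63 against 6.51 and 4.92 against 6.46 CPM, with intervals of the ratio that include 1. Cdkn1a, the p21 inhibitor and p53 target, was nearly equal, at 83.1 against 85.1 CPM in SC4 and 186 against 194 in SC5. It was about 2-fold higher in SC5 than in SC4 in both kinds of cell, with ratios of 2.24 and 2.28. None of the 9 p53 targets tested in both libraries lay 2-fold apart in both, and Btg2, an antiproliferative gene, did so in SC4 alone, with a log2 ratio of -1.16.

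Of 13 transcription factors of the cycle, 6 passed in both libraries and 2 were higher. Foxm1, an activator of G2/M genes, was at 12.9 against 1.57 CPM in SC4 and at 13.4 against 1.62 in SC5. Myc was lower, at 76.5 against 143 CPM in SC4 and at 65.1 against 109 in SC5, without reaching 2-fold. In the band its ratio was 0.803 in SC4 and 0.885 in SC5, where the interval included 1.

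Large ratios were found among genes of chromosome structure and the spindle. Of 18 condensin and cohesin genes, 16 were in the files, 14 passed and 9 were higher. Smc2, a condensin ATPase, was at 128 against 11.1 CPM in SC4 and at 118 against 9.75 in SC5. Its partner Smc4 was at 181 against 22.6 CPM in SC4 and at 178 against 22.6 in SC5. Of 22 centromere and kinetochore genes, 20 passed and all 20 were higher, with medians of 3.09 and 2.88. Spc25, of the Ndc80 complex that grips microtubules, was at 88.8 against 2.34 CPM in SC4 and at 73.4 against 2.91 in SC5. Cenpe, a kinetochore motor, was at 68.1 against 1.80 CPM in SC4 and at 58.9 against 2.15 in SC5. Cenpa (chr5:30666777-30674830), the histone of centromeres, was the most abundant of the group, at 250 against 47.9 CPM in SC4 and at 222 against 35.1 in SC5. Thus comparison cells also held Cenpa, and the ratio was 5.23 in SC4 and 6.31 in SC5.

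Of 34 spindle and cytokinesis genes, 31 passed in both libraries and 30 were higher, with medians of 3.25 and 3.23 over all cells and 3.18 and 2.77 in the band. Nusap1 (chr2:119618298-119651244), which bundles spindle microtubules, was at 62.2 against 0.460 CPM in SC4 and at 54.7 against 0.297 in SC5. Its ratio was 135 (77.2 to 263) in SC4 and 184 (96.6 to 404) in SC5, wide because comparison cells held few UMIs of it. Tubb5, a beta tubulin of all cells, was the most abundant, at 2016 against 792 CPM in SC4 and at 2124 against 746 in SC5, or 2.55-fold and 2.85-fold higher. Of 15 APC/C and mitotic exit genes, all passed and 6 were higher, with a median of 0.51 in SC4 and 0.81 in SC5. Cdc20, its mitotic activator, was at 139 against 8.16 CPM in SC4 and at 105 against 9.22 in SC5. Ube2s, which extends the ubiquitin chains, was at 445 against 159 CPM in SC4 and at 631 against 249 in SC5.

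Of 24 chromatin genes, 23 passed in both libraries and 17 were higher. Hmgb2, a chromatin protein of dividing cells, was at 591 against 68.9 CPM in SC4 and at 547 against 80.4 in SC5. Ptma, prothymosin alpha, was the most abundant of this group, at 3099 against 1774 CPM in SC4 and at 3297 against 1653 in SC5, within 2-fold. Of 20 replication-dependent histone genes, which package newly made DNA, 5 passed the filter in both libraries, 3 were higher and 1 lower. The libraries were made with a 3′ kit, and how well it captures histone mRNA was not tested. These values therefore do not stand for histone mRNA as a whole. The linker histone gene Hist1h1b was at 15.1 against 0.421 CPM in SC4 and at 18.3 against 0.396 in SC5. Hist1h2bc lay the other way, at 42.1 against 120 CPM in SC4 and 54.1 against 138 in SC5, and stayed lower in the band with 41.6 against 102 and 51.2 against 123 CPM.

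**Figure D3:**
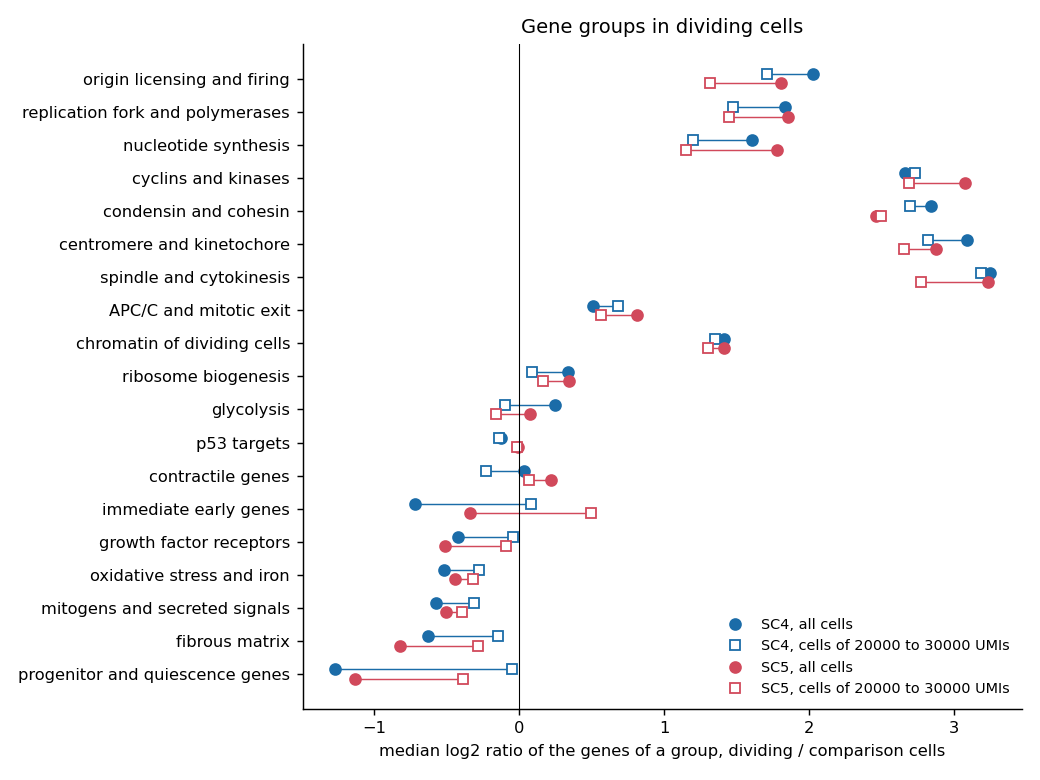
Median log2 ratio of dividing to comparison cells (horizontal axis) for each gene group (rows), in SC4 and SC5, over all cells (circles) and over cells of 20000 to 30000 UMIs (open squares). Replication, kinetochore and spindle groups stay above 1 with both choices of cells, while matrix, progenitor and immediate early groups shift toward or past 0 in the band.

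Growth genes stood near the middle. Of 17 ribosome biogenesis genes, 16 passed in both libraries and none lay 2-fold apart, with a median of 0.34 in both. Npm1, nucleophosmin, was at 2002 against 1289 CPM in SC4 and at 2442 against 1595 in SC5. In the band the medians were 0.09 and 0.17. None of 15 glycolysis genes lay 2-fold apart, with medians of 0.25 and 0.08 over all cells and -0.10 and -0.16 in the band. Gapdh was at 3161 against 2504 CPM in SC4 and at 3308 against 2953 in SC5, but at 2963 against 3143 and 3171 against 3581 CPM in the band. The direction of glycolysis genes thus turned with the choice of cells, while their distance from 0 was small in each.

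Genes of resting progenitors and of matrix lay lower over all cells. Of 21 progenitor and quiescence genes, 18 passed in both libraries, 9 were at least 2-fold lower and none higher, with medians of -1.27 and -1.14. Pi16 (chr17:29317680-29330593), a marker of a fibroblast reservoir around vessels, was at 9.55 CPM in dividing and 113 in comparison cells of SC4, 11.8-fold lower (10.3 to 13.7). SC5 had 6.29 against 54.7 CPM, 8.70-fold lower (7.25 to 10.5). Clec3b, the plasminogen-binding protein tetranectin, was at 3.08 against 55.0 CPM in SC4 and at 3.59 against 50.6 in SC5. Gsn, the actin-severing gelsolin, was at 110 against 462 CPM in SC4 and at 112 against 387 in SC5. The differences were smaller in the band. Pi16 was then at 9.69 against 32.8 CPM in SC4 and at 7.21 against 15.4 in SC5, still 3.39-fold and 2.13-fold lower. Clec3b was at 5.28 against 5.05 CPM in SC4 and at 3.20 against 4.90 in SC5, and Gsn at 136 against 188 and 126 against 165. For the whole list the band gave medians of -0.05 and -0.39, and with the pseudocount 1 gene was 2-fold lower in SC4 and none in SC5.

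All 20 fibrous matrix genes passed, and 3 were at least 2-fold lower in both libraries, with medians of -0.63 and -0.83. Sparc, a collagen-binding glycoprotein, was the most abundant, at 5708 against 8721 CPM in SC4 and at 3353 against 5445 in SC5. Eln, elastin, was at 16.6 against 100 CPM in SC4 and at 17.0 against 67.6 in SC5, and Dcn, the small proteoglycan decorin that is in the progenitor list too, at 666 against 1844 and 815 against 1871. Dividing cells were thus far from devoid of matrix mRNA, and the list as a whole summed to 28699 CPM in dividing and 31541 in comparison cells of the band in SC4. In SC5 these sums were 15573 and 18589. In that band the list had medians of -0.15 and -0.28, Dcn was at 757 against 1122 CPM in SC4 and 925 against 1326 in SC5, and no matrix gene lay 2-fold apart in SC4 or SC5.

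Of 25 mitogens and signals, 20 passed in both libraries and 3 were lower, with medians of -0.57 and -0.50, and with -0.31 and -0.40 in the band. Igf1 (chr10:87858265-87937042), insulin-like growth factor 1, was at 146 CPM in dividing and 532 in comparison cells of SC4, 3.64-fold lower, and at 83.7 against 254 in SC5, 3.03-fold lower. In the band it was 1.56-fold and 1.65-fold lower, with intervals above 1. Il6, interleukin 6, was at 76.2 against 207 CPM in SC4 and at 103 against 249 in SC5, and was 1.24-fold and 1.36-fold lower in the band. None of 12 growth factor receptor genes and none of 10 immediate early genes tested in both libraries lay 2-fold apart in both. Immediate early genes had medians of -0.72 and -0.34 over all cells but 0.08 and 0.50 in the band.

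Contractile genes were mixed, with 1 of 9 lower in both libraries and none higher. Acta2, smooth muscle actin and a mark of activated fibroblasts, was at 785 against 706 CPM in SC4 and at 266 against 187 in SC5. Its ratio in the band was 0.822 in SC4 and 1.24 in SC5, so that its direction differed there. Mylk, myosin light chain kinase, was lower over all cells at 15.2 against 35.5 CPM in SC4 and 18.0 against 44.6 in SC5, and near equal in the band at 19.0 against 22.1 and 19.6 against 19.4 CPM.

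Levels were also followed over the number of division genes with at least 2 UMIs. Cyclin B1 climbed over the whole range in SC4, from 3.52 CPM in cells without any of the 6 genes, through 25.6 with 1 gene and 44.6 with 3, to 121 with all 6. Mcm5 was highest midway, at 79.8 CPM with 2 genes, and at 40.4 with 6. Dcn in SC4 went from 1844 CPM in cells with none of the 6 detected, through 1267 in cells where some were detected but none reached 2 UMIs, to 784 with 1 gene, and then stayed between 616 and 736. Pi16 went from 113 CPM through 67.9 to 9.69 with 1 gene and lay between 8.55 and 15.1 beyond. C3 went from 120 CPM through 62.2 to 18.5 with 1 gene in SC4. Igf1 went from 532 CPM through 340 to 187 with 1 gene and 143 with 6 in SC4, and in SC5 from 254 through 174 to 113 and on to 55.1. UMIs per cell rose along the same classes, with medians of 15175, 18387 and 21570 in SC4 and of 13165, 15650 and 19309 in SC5 up to 1 gene. Depth and the number of division genes therefore moved together in these values. With all other cells of 5000 UMIs in place of the comparison cells, 168 genes in SC4 and 179 in SC5 were at least 2-fold higher and 84 and 104 lower.

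**Figure D4:**
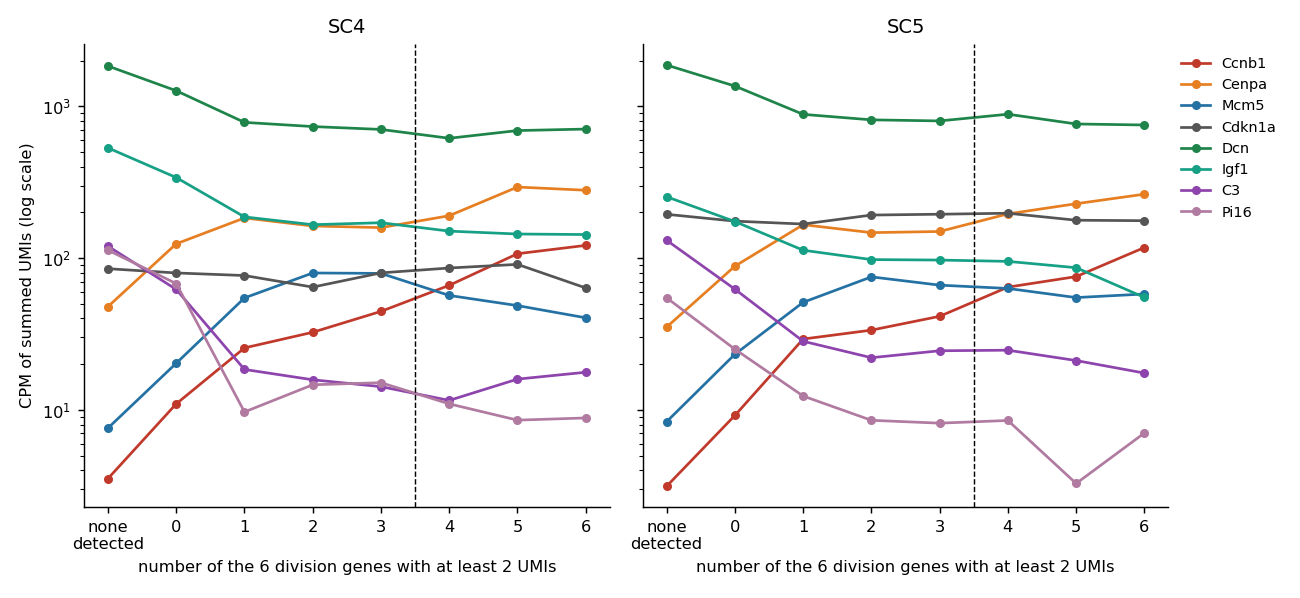
CPM of summed UMIs (vertical axis, log scale) of 8 genes by the number of the 6 division genes with at least 2 UMIs (horizontal axis), starting with cells that have no UMI of any, in SC4 and SC5. The dashed line is the limit of the dividing cells. Ccnb1 goes up as far as 6 genes, Mcm5 peaks at 2, Cdkn1a stays level, and Dcn, Igf1, C3 and Pi16 drop most between the left end and 1 gene, with Igf1 going on down in SC5.

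Of the 7966 genes tested in both libraries, 359 were in the lists. Outside all lists, 152 genes were higher and 181 lower in both libraries. Over all tested genes these counts were 314 (3.94%) and 206 (2.59%). Pclaf, a clamp-binding protein at replication forks, was at 299 against 23.6 CPM in SC4 and at 319 against 31.0 in SC5. Pimreg, a regulator of the metaphase to anaphase step, was at 26.6 against 0.919 CPM in SC4 and at 27.5 against 0.958 in SC5. Both kept ratios of at least 8.19 in the band. Of the lower genes outside the lists, 4 are given, picked after their values were seen. C3 (chr17:57203970-57228136), the central complement component, was at 14.6 CPM in dividing and 120 in comparison cells of SC4 and at 21.9 against 131 in SC5. Serpina3n, a secreted protease inhibitor, was at 15.1 against 120 CPM in SC4 and at 13.1 against 88.8 in SC5. Lcn2, an iron-chelating acute phase protein, was at 2.57 against 19.3 CPM in SC4 and at 7.99 against 58.2 in SC5. Slfn5, an interferon-induced gene, was 21.9-fold lower (12.9 to 40.4) in SC4, at 0.643 against 14.1 CPM, and was 11.3-fold lower in SC5 at 1.70 against 19.2. In the band C3 was 1.72-fold and 1.80-fold lower, Serpina3n 2.06-fold and 2.17-fold, Lcn2 2.17-fold and 3.33-fold, and Slfn5 7.65-fold and 2.66-fold, and all 8 intervals lay above 1.

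The 9 genes lower in the band in both libraries, by at least 2-fold with the pseudocount of 1 CPM and at a mean of at least 5 CPM, are named here in full, after their values were seen: Ahnak2, Gm15417, Hist1h2bc, Ifi205, Mmp3, Saa3, Serpina3n, Srgn and Tcp11l2. Srgn, the proteoglycan core protein serglycin, was at 7.86 against 16.7 CPM in SC4 and at 6.86 against 22.9 in SC5. Saa3, an acute phase serum amyloid, was at 22.2 against 62.6 CPM in SC4 and at 65.3 against 400 in SC5. They belong to no single group of the lists.

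Within the dividing cells, S and G2/M genes were set against each other, with 42 S and 47 G2/M genes of Seurat's lists and without the rule genes. A median dividing cell held 41 S and 121 G2/M UMIs in SC4 and 37 and 106 in SC5. Per 10000 UMIs this was 14.4 and 43.2 in SC4 and 13.8 and 40.0 in SC5, compared with 3.54 and 6.61 in comparison cells of SC4 and 3.65 and 6.70 in SC5. Both programmes were above comparison cells. S UMIs exceeded G2/M UMIs in 69 dividing cells of SC4 (9.09%) and in 31 of SC5 (4.26%), and in 14.3% and 14.5% of comparison cells, so that G2/M UMIs were the more numerous in most cells of both kinds. The median log2 ratio of G2/M to S UMIs was 1.67 in SC4, with a 10th to 90th percentile of 0.04 to 2.85, and 1.62 in SC5, with 0.30 to 2.48. In comparison cells it was 0.81 in both libraries. Across dividing cells, the logs of both levels had Pearson's r of -0.514 in SC4 and -0.281 in SC5, and across comparison cells 0.335 and 0.363. These cells share a library, and r is a description. The rule picks genes of G2 and M phase, so that cells early in S phase can lie outside it.

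**Figure D5:**
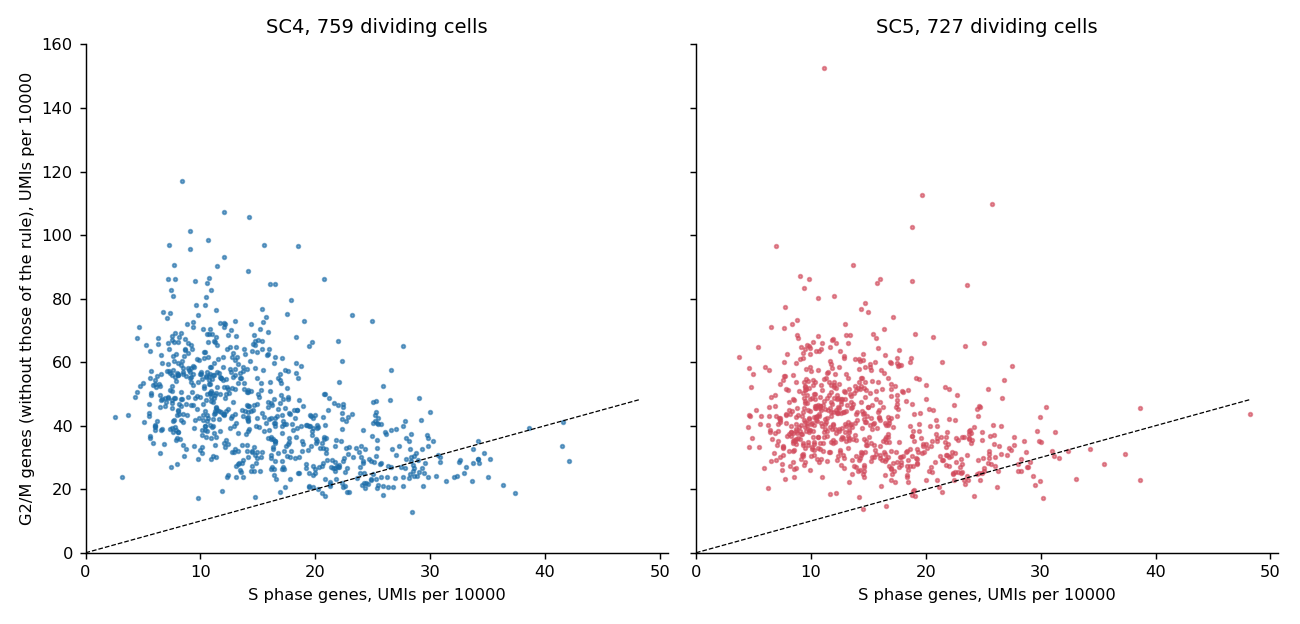
UMIs of 47 G2/M genes (vertical axis) against those of 42 S genes (horizontal axis), both per 10000 UMIs of the cell, in the 759 dividing cells of SC4 and the 727 of SC5, 1 point per cell, with the line of equality dashed. Most points lie above the line, and the levels run against each other across cells, loosely in SC5 (r = -0.281).

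Dividing cells of each library were split into 3 equal parts by this ratio, with 253 cells per part in SC4 and 242, 242 and 243 in SC5. The parts are a range and not types, as 112 cells of SC4 and 117 of SC5 lay within 0.1 log2 of a border. Depth had medians of 28860, 28584 and 27395 UMIs in SC4 and of 27906, 26971 and 24974 in SC5 from the S to the G2/M part. Likely doublets, which were kept, numbered 19, 12 and 3 in SC4 and 10, 13 and 13 in SC5 in that order. Of 7811 genes tested in both libraries, 55 were at least 2-fold higher and 48 lower in the G2/M part than in the S part. Genes of the 2 lists made the ratio and are given as a description, 17 of the 55 and 23 of the 48. The following genes are in neither list and were chosen after their values were seen. Hist1h1b, the linker histone of S phase, was at 29.1 CPM in the S part and 2.87 in the G2/M part of SC4, and at 35.3 and 3.83 in SC5. Cyclin A2 (Ccna2) was at 41.9 and 69.1 CPM in SC4, within 2-fold and so not among the 55. Cyclin B1 (Ccnb1) was at 33.4 and 166 CPM in SC4 and at 37.3 and 119 in SC5. Cdc25b, a phosphatase that activates Cdk1, was at 3.77 and 31.6 CPM in SC4 and at 4.63 and 25.9 in SC5.

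Of the rule genes, Ube2c differed most between these parts, from 169 to 807 CPM in SC4 and from 191 to 615 in SC5. Mki67 differed little, with 47.4 and 56.6 CPM in SC4 and 50.6 and 61.3 in SC5. Cenpa, in the G2/M list, went from 65.3 to 445 CPM in SC4 and from 71.7 to 362 in SC5. Some genes outside the cycle followed too. Gas6, a secreted ligand of the TAM receptors, was at 17.8 CPM in the S part and 44.5 in the G2/M part of SC4 and at 17.9 and 41.0 in SC5. Serpina3n was at 8.75 and 22.1 CPM in SC4 and at 7.52 and 18.2 in SC5. Il11, a cytokine of the interleukin 6 family, lay the other way, at 189 and 73.5 CPM in SC4 and at 359 and 149 in SC5. The 20 matrix genes summed to 23915 CPM in the S part and 27719 in the G2/M part of SC4, and to 12230 and 16818 in SC5.

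Promoter words were counted in genes that differ between these parts, leaving out the genes of the 2 lists, which made the parts, and the rule genes. That left 37 genes higher in the G2/M part, of which 29 had a promoter window, with TTTGAA in 48.3% of them and TTTNNCGC in 6.90%. Of the 25 lower genes left, 19 had one, with TTTGAA in 15.8% and TTTNNCGC in 31.6%. Of the 7811 genes tested between the parts, 6190 had a window, which held them in 11.8% and 9.73%. CCAAT was in 62.1% and 57.9% of the higher and lower genes and in 39.3% of those tested. Cell-cycle genes of other lists are among them. All genes at least 2-fold higher in dividing cells of both libraries include the 6 rule genes, so that their shares are a description. Of these 314 genes, 248 had a window, with TTTGAA in 36.7%, TTTNNCGC in 20.6% and CCAAT in 62.5%. The 6292 windows of genes tested in that contrast held them in 11.7%, 9.41% and 38.8%. Of the rule genes, 5 had a window, and all 5 held TTTGAA and CCAAT.

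Dividing cells of SC5 and SC4 were set side by side last. These libraries differ in condition, mice and preparation, which cannot be told apart. Of 8156 genes, 124 lay at least 2-fold higher in SC5 (1.52%) and 104 lower (1.28%). Cells of both libraries were chosen by the same limit on division genes, so that likeness in such genes draws in part on the rule and is a description. Without the rule genes, none of 40 S, 47 G2/M, 21 kinetochore and 32 spindle genes tested lay 2-fold apart, and 36 of the G2/M, 17 of the kinetochore and 24 of the spindle genes were below 0, with medians of -0.08, -0.17 and -0.10 log2. Of 23 cyclins and kinases and 24 chromatin genes, 1 and 2 lay 2-fold higher in SC5. Mcm5 had a ratio of SC5 to SC4 of 1.18 and Tk1 of 0.982, and Plk1, a mitotic kinase, was at 42.0 CPM in SC5 against 63.5 in SC4. Of 11 genes of oxidative stress and iron, 4 lay 2-fold higher in SC5 and none lower, with a median of 0.63. From the 10 genes with the largest ratios at a mean of at least 20 CPM, 3 are given, picked after their values were seen. Hmox1, the heme oxygenase, was at 263 CPM in dividing cells of SC5 and 62.8 in SC4, and at 612 and 126 in comparison cells. Crabp1, a retinoic acid binding protein, was at 105 CPM in SC5 and 18.4 in SC4, and 1.75 times as high in dividing as in comparison cells of SC5, but 0.729 times in the band. Hmga1, a chromatin protein, was at 33.3 CPM in SC5 and 6.89 in SC4, and at 18.8 and 5.55 in comparison cells.

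Of 20 fibrous matrix genes, 6 lay 2-fold lower in SC5 and none higher, 19 were below 0, and the median was -0.88. Of 10 contractile genes, 5 lay 2-fold lower and none higher, with a median of -0.97. From the 10 genes with the lowest ratios at that mean, 4 are given, picked after their values were seen. Postn, periostin, was at 237 CPM in dividing cells of SC5 and 902 in SC4, and at 545 and 1387 in comparison cells. Cthrc1, a secreted protein of activated fibroblasts, was at 278 CPM in SC5 and 980 in SC4, and at 473 and 1267 in comparison cells. Tnn, tenascin N, was at 13.7 CPM in SC5 and 102 in SC4, and at 12.4 and 80.5 in comparison cells. Acan, aggrecan of cartilage, was at 5.24 CPM in SC5 and 38.4 in SC4, and at 3.30 and 29.6 in comparison cells. For all of these genes the difference between libraries was in the same direction in dividing and comparison cells. Across the 8156 genes, the ratios of SC5 to SC4 in both kinds of cell had Pearson's r of 0.821. SC_9, the library that carries the label d3 post-polytrauma, was then set in place of SC5. Chondrogenic markers summed to 6327 CPM in its dividing cells, led by Col2a1 at 3383. They summed to 135 CPM in dividing cells of SC4, 112 of SC5 and 274 of SC10. The authors reported a chondrocyte population at d5 post-fracture. Whether SC_9 and SC4 are of the same day was not tested, so the changes below cannot be read as a contrast at d3 alone. Of the 124 genes higher and 104 lower in SC5, 61 and 84 took the opposite sign. The log2 ratio of SC_9 to SC4 was 1.77 for Postn, 2.65 for Tnn, 5.08 for Acan and 0.039 for Cthrc1. It was -1.12 for Crabp1 and -2.23 for Hmga1. Each of these was opposite in sign to that of SC5, while Hmox1 was not among the genes that turned.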

How the data were processed

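The authors aligned reads of the Chromium libraries to mm10 with Cell Ranger (3.1.0 in the header of the matrices) and named Seurat 3.1.2. Their methods name a later Cell Ranger version and, in another passage, an earlier Seurat version. Which Cell Ranger version made the files could not be settled. They deposited raw UMI counts per gene and barcode, without normalization, for 31055 genes in 5 libraries. Of the gene identifiers, 99.6% were found in GENCODE M21 (GRCm38), which gave positions. Promoters came from RefSeq.

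From these counts, cells with 350 to 8000 genes, under 20% mitochondrial UMIs and at least 5000 UMIs were kept. UMIs were summed over dividing or comparison cells and scaled to CPM. Genes with a mean of at least 5 CPM were compared by log2 ratio with a pseudocount of 1 CPM, and a difference of at least 2-fold was counted. Ratios carry exact conditional Poisson intervals and shares Clopper-Pearson intervals. Doublets were marked from Scrublet scores (scanpy 1.11.5) at 0.8% per 1000 cells, since its own threshold marked none in SC4 and SC5, and were kept. The calculation of ratios and intervals was checked on simulated Poisson counts. These held no variation between cells and no choice of cells by the rule genes, so the check cannot speak to either.

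Named were, per list, up to 5 genes with the largest ratios in both libraries and the most abundant gene, then 15 genes per direction outside the lists, 10 per direction between libraries, and markers of other cell types. The text gives some of these, picked after their values were seen. Other genes are said to be chosen afterwards. Members, lists and tests were chosen with earlier results of these data known. Alternatives concerned the rule, depth, comparison cells, scaling, pseudocount, filter and cells left out. The band of 20000 to 30000 UMIs and the removal of marker-positive cells were added after seeing the data. The scripts ran in Python 3.11.15 (scipy 1.17.1 for intervals, numpy 2.4.6 and pandas 2.3.3 for sums, matplotlib 3.10.9 for figures).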

Additional observations from a re-analysis of the deposited data

Results flagged for a closer look

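Libraries outside the comparisons also held cells that met the rule, far above the 0.109% of uninjured muscle. In SC_9 these were 205 of 1414 cells (14.5%, 12.7 to 16.4), and 77.1% of them shared a barcode with another library, against 46.0% of its comparison cells and 61.0% of all its cells with at least 5000 UMIs. In SC10 they were 2169 of 10850 cells (20.0%, 19.2 to 20.8). After thinning to 5000 UMIs, 122 and 1519 cells had at least 1 UMI of at least 4 of the 6 genes. The 15 glycolysis genes had a median log2 ratio of dividing to comparison cells of 1.40 in SC_9, against 0.25 in SC4, 0.08 in SC5 and 0.31 in SC10. Chondrogenic markers had one of 2.68 over 8 tested genes in SC_9 and of -0.29 over 6 in SC10, while 2 genes of SC4 and 1 of SC5 passed the filter, so that these medians rest on different genes. Dividing cells of SC_9 held 1.90 times the UMIs of its comparison cells. Neither group was tested, and SC_9 is 1 library.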

How the results depend on the processing

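No paired analysis was possible because each condition has 1 library, and for the same reason no replicate could be left out. The share of dividing cells was 22.2% (SC4) and 18.6% (SC5) with at least 3 of the 6 genes, 9.05% and 6.82% with 5, and 6.70% and 5.57% after thinning, with 1 UMI per gene asked for. It was 11.4% in SC5 without shared barcodes, and 14.5% in SC_9 used in place of SC5. The count of genes at least 2-fold higher in dividing cells, 338 and 423, was 168 and 179 against all other cells, 206 and 225 with a pseudocount of 10 CPM and 157 and 201 at a mean of at least 20 CPM. The count of lower genes, 295 and 319, was 26 and 45 in the band of 20000 to 30000 UMIs. It was 142 and 137 with comparison cells weighted to the UMI totals of dividing cells. With both groups chosen after thinning it was 100 and 149. Thinning only chose these cells, and their full counts were compared. By median, dividing cells so chosen still held 1.46 (SC4) and 1.61 (SC5) times the UMIs of comparison cells. The count of lower genes was also 84 and 104 against all other cells and 145 and 139 with the larger pseudocount. It was 162 and 159 with the stricter filter, and 463 in SC4 at a mean of at least 1 CPM. The weights rest on few cells, since 24 comparison cells of SC4 and 30 of SC5 lay above the median UMI count of dividing cells.

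Of all genes 2-fold apart in the full contrast, 29 lower ones of SC4 changed sign in the band. In SC5, 27 lower and 2 higher ones did. Among named genes with a log2 ratio of at least 1 in size, Rgs5 (3.69), Tnmd (0.84), Thbs4 (0.15) and Clec3b (0.053) turned in SC4. Mylk (0.013) turned in SC5. List medians of that size turned to 0.21 for tenocyte and 0.42 for hematopoietic markers in SC4. The latter turned to 0.12 in SC5, over the genes that passed the filter in all cells, as in SC4. Smaller medians that changed sign in the band of SC4 were those of pericyte markers (2.12), glycolysis (-0.10), contractile (-0.23) and immediate early genes (0.08). In SC5 those of glycolysis (-0.16) and immediate early genes (0.50) did. Over genes that passed the filter in all cells, so did p53 targets (0.06) and CDK inhibitors and pocket proteins (0.21) in SC5. Over genes that passed it within the band these were -0.01 and 0.14, so that p53 targets did not turn. Rgs5 was at 0.43 in SC4 with cells chosen after thinning. With weighted cells, 36 lower genes and 1 higher gene of SC4 and 33 lower and 6 higher genes of SC5 changed sign. Named genes and lists that did so in SC4 were Rgs5 (1.21), Tnmd (0.026), Thbs4 (0.15) and the tenocyte median (0.086). In SC5 they were Hmox1 (0.058), Mylk (0.33) and the hematopoietic median (0.065). Between the dividing cells of SC5 and SC4, 33 genes were higher and 41 lower with a pseudocount of 10 CPM, 47 and 51 at a mean of at least 20 CPM, and 191 higher at 1 CPM. SC_9 in place of SC5 gave 971 genes higher and 915 lower than in its comparison cells. Of the genes 2-fold apart within SC5, 1 higher and 38 lower ones changed sign. Saa3 was then at 1.75 and the tenocyte and erythroid medians at 0.031 and 1.01. Against SC4, from which it may differ in day, SC_9 gave 2644 and 257. Of the 124 genes higher and 104 lower in SC5 than in SC4, 61 and 84 changed sign. Named genes that turned were Rgs5 (0.50), Tnn (2.65), Tnmd (1.92), Postn (1.77), Acan (5.08) and Cthrc1 (0.039). Crabp1 (-1.12), Hmga1 (-2.23) and Cdkn1a (-1.93) turned too, and medians were 1.92 and 3.82 for tenocyte and chondrogenic markers. The ratio of G2/M to S UMIs was 1.35 and 1.46 with at least 3 of the 6 genes and 1.97 and 1.76 with 5. The cause was not tested except where the alternative itself changes which cells or genes enter.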
